A study of Homo sapiens with 6 samples.

Results

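The proteasome genes of HCC2814 cells, a human lung squamous cell carcinoma (LUSC) line, were compared between WT and MLST8-KO cells. Genes were taken by symbol, as those that start with PSMA, PSMB, PSMC, PSMD, PSME, PSMF or PSMG, without PSMB8, PSMB9, PSMC3IP, and hyphenated or pseudogene symbols. This gave 44 of the 17448 genes in the table. They comprised 7 alpha and 8 beta subunits of the core particle, 17 subunits of the regulatory particle (6 ATPases and 3 other subunits of its base, and 8 subunits of its lid), 5 genes for activators or an inhibitor, and 7 assembly chaperones. WT cells received a lentiviral Cas9 vector with the non-targeting guide sgCtrl, and MLST8-KO cells the same vector with a guide against MLST8, a subunit shared by the mTOR complexes. Both were selected with antibiotic before use, and the study's methods describe no single-cell cloning of this line. Each group had 3 samples, which the series' design describes as biological replicates made in independent experiments, and poly(A) RNA was sequenced.

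The proteasome degrades proteins that carry ubiquitin chains. Its barrel-shaped core is built of outer alpha rings, which gate the channel, and inner beta rings, which hold the protease sites. A regulatory particle caps the barrel. The ATPases of its base unfold the substrate and thread it into the core, and its lid removes the ubiquitin. Dedicated chaperones assemble both parts, and the transcription factor NFE2L1 is known to raise the proteasome genes together when the proteasome is inhibited.

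Samples held between 14381673 and 15744154 counts over all genes. MLST8 itself, the targeted gene, had 58.0, 56.9 and 60.7 CPM (counts scaled to the depth of each sample) in the WT samples and 25.5, 38.9 and 25.7 in the MLST8-KO samples, a log2 fold change of -0.96 (SE 0.15, edgeR adjusted p = 0.00339). All 10 squamous or basal epithelial markers examined were detected in every sample. Their summed level was 21900, 17100 and 14000 CPM in WT replicates 1, 2 and 3, and 26500 to 29600 CPM in MLST8-KO samples. The sum over 4 general epithelial markers was 948 to 1040 CPM in WT and 835 to 874 CPM in MLST8-KO samples. Sums were low for endothelial markers (1.94 to 3.52 CPM over all samples), fibroblast markers (31.1 to 38.4 CPM) and lymphoid and myeloid markers (41.7 to 75.5 CPM, mostly CD68), and PTPRC, which marks white blood cells, reached at most 1 count. WT replicates 1 and 3 differed most within a group (chi-square of 25.2 per gene, against 6.71 to 9.75 for the other pairs), and MLST8-KO replicate 1 held 241 CPM of 6 hepatocyte genes, against 0.487 to 6.40 in the other samples. The part of these differences in the results below was not tested, and the counts of calls are therefore given also without single samples. In bulk RNA, fewer cells that express a gene and less RNA per cell cannot be told apart.

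Promoter sequence from RefSeq (GRCh38.p14, 250 bases before to 50 after a transcript start) was found for 38 of the 44 genes. PSMA7, PSMB1, PSMB6, PSMB7, PSMD4 and PSMG3 were not matched. The letters TGACNNNGC, the core of the antioxidant response element that NFE2L1 and NFE2L2 bind, occurred on either strand in 14 of 38 (36.8%), against 16.1% of all 27305 genes with a promoter sequence and 19.3% of the 10561 that were also tested for expression. The promoters of PSMC4, PSMC5, PSMD12 and PSMD5, which hold a match, are shown because they set a gene that rose in the comparison below, PSMC5, beside 3 that fell. Capitals mark the match, which starts 27 bases after the transcript start in PSMC4, and 57, 134 and 165 bases before it in PSMC5, PSMD5 and PSMD12. In PSMC4 and PSMC5 it lies on the opposite strand. PSMC5 has a second promoter entry, without a match. The other genes with a match, PSMA4, PSMB3, PSMD1, PSMD3, PSMD9, PSME1, PSME2, PSME4, PSMG1 and PSMG2, neither rose nor fell past the threshold. PSMA1, PSMA5, PSMA6, PSMD13 and PSMB10, which did, had promoter sequence without a match. Whether a match goes with a change was not tested.
PSMC4, chr19:39970915-39971214, plus strand: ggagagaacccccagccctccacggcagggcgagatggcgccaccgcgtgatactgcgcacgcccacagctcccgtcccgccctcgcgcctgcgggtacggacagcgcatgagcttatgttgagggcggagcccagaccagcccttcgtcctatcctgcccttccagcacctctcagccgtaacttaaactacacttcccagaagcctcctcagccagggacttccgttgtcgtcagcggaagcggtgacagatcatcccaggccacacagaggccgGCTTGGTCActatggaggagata
PSMC5, chr17:63827471-63827770, plus strand: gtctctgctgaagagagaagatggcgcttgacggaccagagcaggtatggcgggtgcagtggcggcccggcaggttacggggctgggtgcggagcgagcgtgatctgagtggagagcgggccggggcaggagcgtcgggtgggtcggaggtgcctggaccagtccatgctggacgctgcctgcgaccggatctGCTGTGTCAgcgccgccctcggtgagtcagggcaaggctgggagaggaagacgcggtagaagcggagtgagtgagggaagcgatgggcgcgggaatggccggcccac
PSMD5, chr9:120842873-120843172, minus strand: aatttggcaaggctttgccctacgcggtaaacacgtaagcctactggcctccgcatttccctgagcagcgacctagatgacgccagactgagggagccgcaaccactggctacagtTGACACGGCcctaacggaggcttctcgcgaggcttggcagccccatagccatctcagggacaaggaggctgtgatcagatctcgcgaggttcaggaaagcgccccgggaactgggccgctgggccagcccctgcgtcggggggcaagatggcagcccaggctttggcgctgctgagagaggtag
PSMD12, chr17:67366528-67366827, minus strand: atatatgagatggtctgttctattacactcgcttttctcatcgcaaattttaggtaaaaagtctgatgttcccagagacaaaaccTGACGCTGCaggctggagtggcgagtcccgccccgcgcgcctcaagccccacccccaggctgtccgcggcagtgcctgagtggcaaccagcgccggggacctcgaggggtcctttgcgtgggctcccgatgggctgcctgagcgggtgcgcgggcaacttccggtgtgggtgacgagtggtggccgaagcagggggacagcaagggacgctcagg

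Of the other motifs searched on both strands, CCGGAAG, which ETS factors bind, was present in 14 of 38 (36.8%), against 12.2% of all genes and 22.3% of tested genes. CCAAT, the NF-Y box, was present in 18 of 38 (47.4%), against 39.7% and 43.2%. The E-box CACGTG was found in 3 of 38 (7.89%), against 8.77% and 12.6%. Neither the cAMP response element TGACGTCA nor the heat shock element GAANNTTC occurred in these windows, where 2.25% and 8.21% of all genes held them. Matches of different motifs may share bases, and a match is not evidence that a factor binds there.

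All 44 genes passed the filter on low counts, with 74 to 11468 counts per sample. Levels of different genes were set side by side in TPM, a unit scaled for transcript length. Mean WT levels ran from 15.2 TPM for the chaperone PSMG4 to 545 TPM for PSMA1, a ratio of 35.9. The 7 constitutive beta subunits lay between 137 and 458 TPM. The alpha subunits lay between 215 and 545 TPM except for PSMA5, at 59.0 ± 5.09 TPM (SD, n = 3). PSMA5 and PSMB2, the lowest of each ring among constitutive subunits, also had the most counts behind each TPM, 30.0 and 37.5, where the other alpha and beta subunits had 5.23 to 10.7. Their annotated coding transcripts are long, 1504 to 3729 bases for PSMA5 and 2701 to 4217 bases for PSMB2. The lengths that the authors used are not listed in the table. These levels depend on them, and they were not worked out from the deposited values here.

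**Figure D1:**
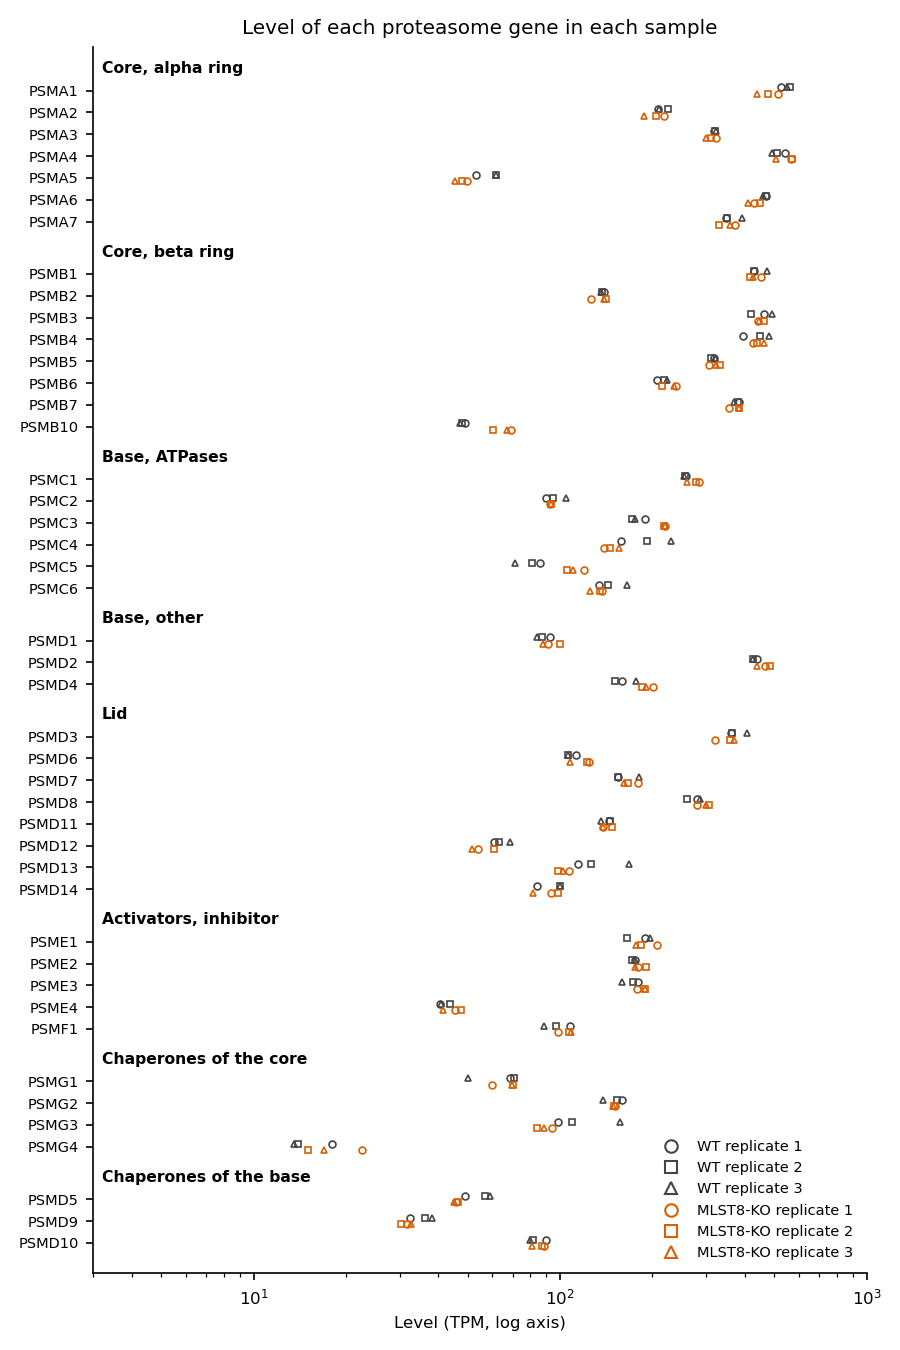
Level of each of the 44 proteasome genes in each sample (TPM on a log axis, 1 symbol per sample, WT in grey and MLST8-KO in orange). PSMA1 is highest at 545 TPM in WT cells and PSMG4 lowest at 15.2 TPM, and the distance between genes is much larger than that between groups.

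The question asked of the 2 groups was which proteasome genes changed when MLST8 was disrupted. At an adjusted p under 0.05, 2 of the 44 genes were higher in MLST8-KO cells (4.55%, where 16.3% of all 12951 tested genes were higher) and 8 were lower (18.2%, where 15.7% of all tested genes were lower). PSMB10 and PSMC5 rose. PSMA1, PSMA5, PSMA6, PSMC4, PSMD12, PSMD13, PSMD5 and PSMG3 fell. The share that fell was close to that of all genes, so it does not set the proteasome apart. The remaining 34 genes did not pass. At an unadjusted p under 0.05 there were 15 of the 44, the 10 called genes included, and 5815 of the 12951 genes tested. Each adjusted p comes from the quasi-likelihood test in edgeR, corrected over all tested genes by the Benjamini-Hochberg method. The test sets the difference between groups against the spread between the 3 samples of each group, estimated with information shared across genes.

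The shifts were small and mostly of one sign. Log2 fold changes ran from -0.64 to 0.38, 34 of 44 were below 0 (77.3%, against 49.5% of all tested genes), and their median was -0.11, against 0.0045 over all genes. In CPM, every MLST8-KO sample lay below every WT sample for 19 of the 44 genes (24.2% of all genes did so), and above for 3 (24.8% of all genes). With upper quartile scaling 26 of 44 were below 0, but the median of all genes moved with them to 0.059, and the proteasome genes lay 0.12 under it, as they did before. With limma on log2(TPM + 1), 22 of 44 were below 0 and the median was 0.0043, while the median of all genes was 0.092, so that the proteasome genes again lay under it, by 0.088. In that analysis 4 genes were higher (21.5% of all genes) and 3 were lower (8.76% of all genes), so that 57.1% of the proteasome calls were higher, against 2 of 10 with edgeR. PSMB10, PSMC5, PSMC3 and PSMD4 were the higher genes there, and PSMA5, PSMC4 and PSMD13 the lower ones. The other 5 genes that had fallen, PSMA1, PSMA6, PSMD12, PSMD5 and PSMG3, were not past the threshold there (limma adjusted p 0.0542 to 0.226).

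**Figure D2:**
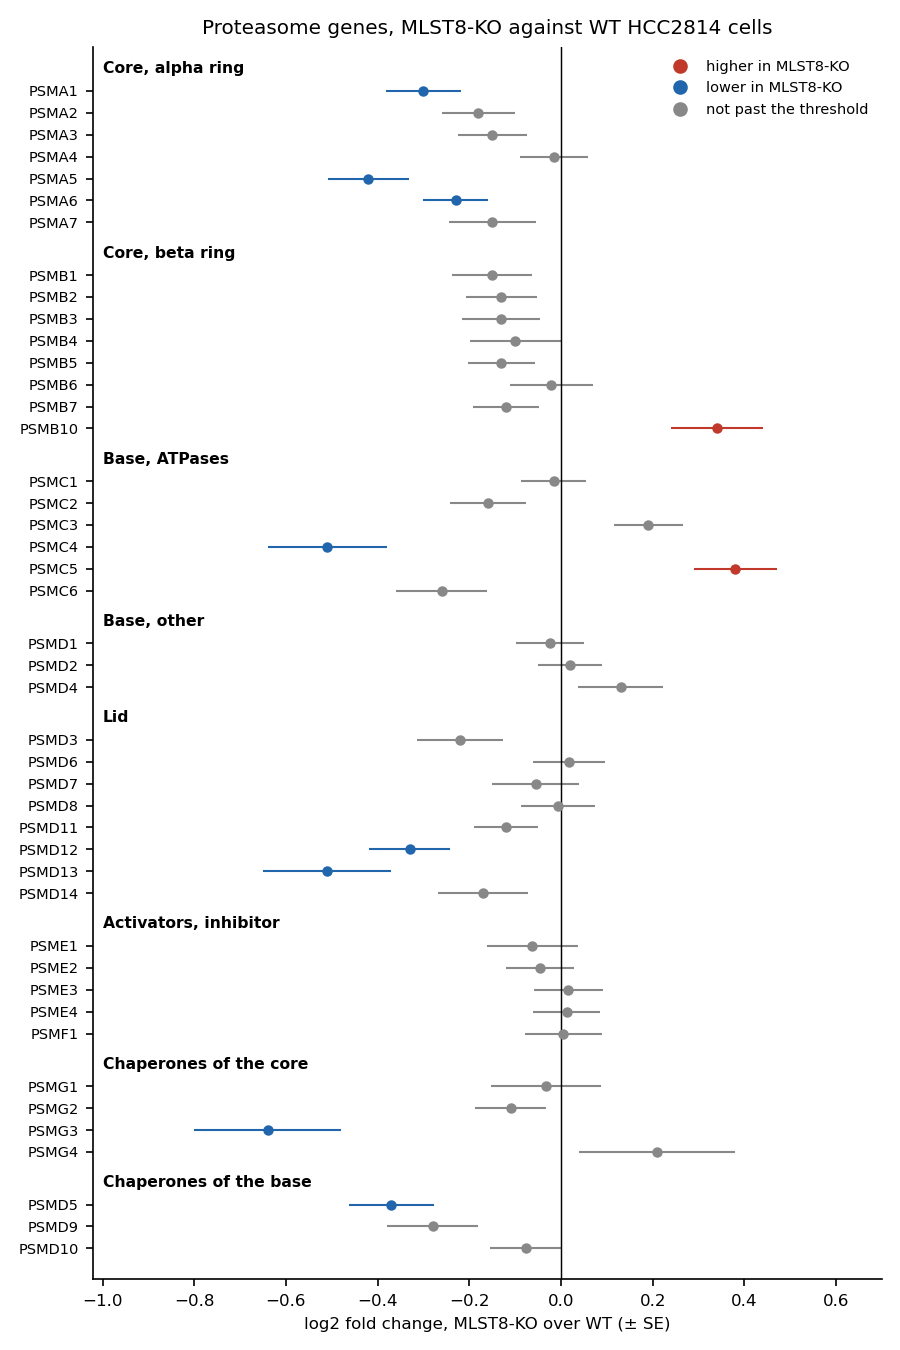
Log2 fold change of each of the 44 genes, MLST8-KO over WT, with its SE (edgeR, 3 samples per group), by the part of the proteasome the gene builds. Red marks the 2 genes past the threshold upwards and blue the 8 past it downwards. All 7 alpha subunits lie below 0 with the scaling shown (6 of 7 with upper quartile scaling or on TPM). With the scaling shown, 49.5% of all tested genes lie below 0. The activators and the inhibitor lie within 0.063 of 0.

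Many calls were lost when a sample was left out, in the proteasome as over all genes. Without WT replicate 2 or without MLST8-KO replicate 1, 0 genes were called higher (2 at an unadjusted p under 0.05 in each) and 3 lower by edgeR, and without MLST8-KO replicate 2 only PSMA5 and PSMD12 were called lower. Without MLST8-KO replicate 3, PSMC5 was higher and PSMA5, PSMC4 and PSMD5 were lower. Leaving out WT replicate 1 gave 11 lower calls, and leaving out WT replicate 3 gave 7. PSMA5 alone of the 10 called genes passed in all 6 of these analyses. Over all genes, 2116 higher and 2030 lower calls became 971 and 1044 without WT replicate 2, 1634 and 1559 without WT replicate 3, and 2692 and 2651 without WT replicate 1. Leaving out a MLST8-KO sample gave 979 and 850 calls for replicate 1, 1136 and 1091 for replicate 2, and 1543 and 1497 for replicate 3. For all 8 genes that fell, WT replicate 3 was the highest WT sample and WT replicate 1 the lowest, that is, nearest to the MLST8-KO samples. For PSMC5, which rose, WT replicate 1 was again nearest and WT replicate 3 farthest. The part of these samples in the calls beyond the analyses above was not tested.

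**Figure D3:**
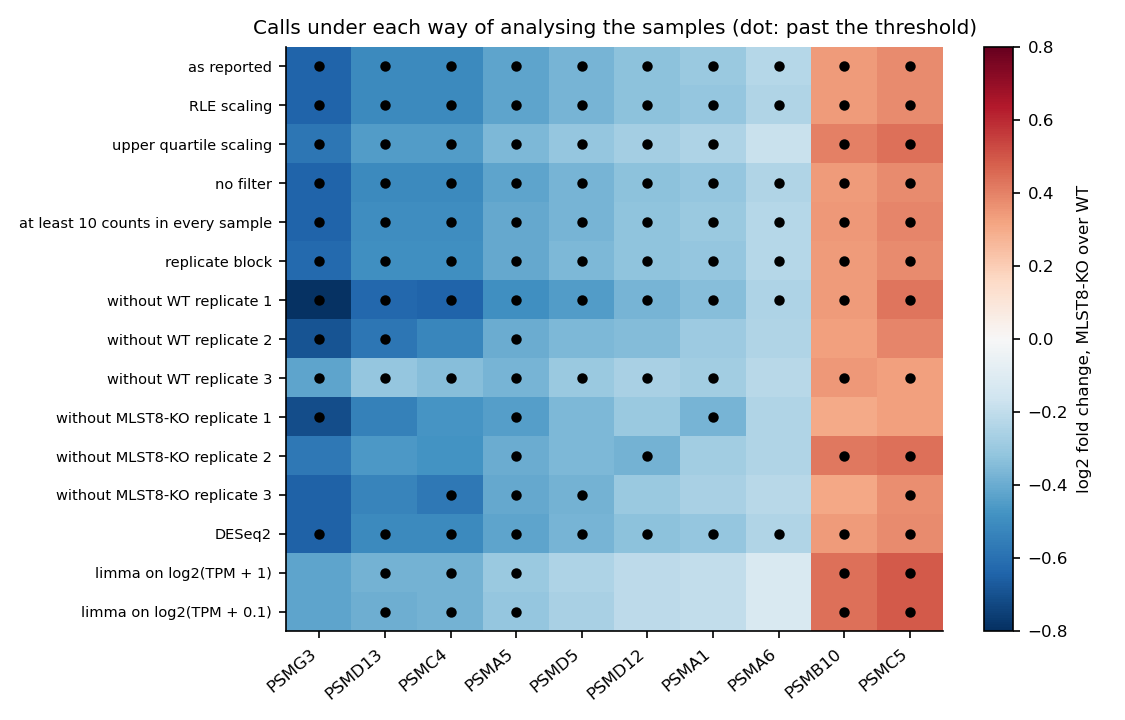
Log2 fold change (colour) of the 10 called genes under each analysis, with a dot where the adjusted p was under 0.05. Colour keeps its sign in every row for all 10 genes, while dots are lost in 5 of the 6 rows that leave out 1 sample, though never in the PSMA5 column.

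The alpha ring held 3 of the 8 genes that fell, which was 42.9% of its genes, against 15.7% of all tested genes. With limma on log2(TPM + 1), 1 of the 7 was called lower, where 8.76% of all tested genes were. All 7 alpha subunits had a log2 fold change below 0 (median -0.18), where 49.5% of all tested genes did. With upper quartile scaling or on TPM, 6 of 7 were below 0. Relative to the median of all genes, their median was -0.19 with the main and upper quartile scalings and -0.17 on log2(TPM + 1). PSMA5 (alpha5) had 109, 126 and 131 CPM in WT samples and 94.1, 89.3 and 89.6 CPM in MLST8-KO samples. Every MLST8-KO sample was below every WT sample, and the log2 fold change was -0.42 (SE 0.088, edgeR adjusted p = 0.0081). PSMA1 (alpha6), which had the highest mean TPM of the 44 genes in WT cells though its samples overlapped those of PSMA4, had 311, 336 and 340 CPM in WT and 290, 259 and 252 CPM in MLST8-KO cells. It fell by 19.0% (log2 fold change -0.30, SE 0.082, edgeR adjusted p = 0.0202), again without overlap. The call was lost without WT replicate 2, MLST8-KO replicate 2 or MLST8-KO replicate 3, where the adjusted p reached at most 0.0820. PSMA6 (alpha1) had little spread, with 238, 244 and 248 CPM against 208, 209 and 203 CPM. Its log2 fold change was -0.23 (SE 0.070, edgeR adjusted p = 0.0288), and of the analyses that left out 1 sample it passed only in that without WT replicate 1 (adjusted p up to 0.0995 in the other 5). It was also lost with upper quartile scaling. The annotation lists 4 pseudogenes of PSMA6, with which its reads could be shared. PSMA4 (alpha3) stood at the other end of the ring, with a log2 fold change of -0.016 (SE 0.074, edgeR adjusted p = 0.883). PSMA2, PSMA3 and PSMA7 lay between -0.18 and -0.15 and did not pass.

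In the beta ring 1 of 8 genes passed, the inducible subunit PSMB10, which rose (12.5%, where 16.3% of all tested genes were higher). The 7 constitutive subunits all had log2 fold changes below 0 with the main scaling, from -0.15 to -0.02, and none passed the test. Of all tested genes, 49.5% were below 0 with that scaling. With upper quartile scaling 6 of 7 and on TPM 4 of 7 were below 0, while their median relative to that of all genes was -0.13 with the main and upper quartile scalings and -0.11 on log2(TPM + 1). Among the protease subunits, PSMB5 (beta5, chymotrypsin-like) had 317 ± 4.75 TPM in WT and 321 ± 14.1 TPM in MLST8-KO cells, with a log2 fold change on CPM of -0.13 (SE 0.073, edgeR adjusted p = 0.202). PSMB6 (beta1, caspase-like) had 216 ± 8.04 and 229 ± 12.5 TPM (-0.021, SE 0.090, edgeR adjusted p = 0.875), and PSMB7 (beta2, trypsin-like) 378 ± 7.17 and 374 ± 15.8 TPM (-0.12, SE 0.073, edgeR adjusted p = 0.224). Signs of these small values varied with scaling for PSMB5 and PSMB6.

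PSMB10 encodes beta2i, the inducible subunit that takes the place of PSMB7 in the immunoproteasome. It had 22.8, 22.8 and 23.2 CPM in the WT samples and 30.9, 25.9 and 30.3 CPM in the MLST8-KO samples. WT samples were nearly identical, and all MLST8-KO samples were above them, for a log2 fold change of 0.34 (SE 0.10, edgeR adjusted p = 0.0277). The call was lost without WT replicate 2, MLST8-KO replicate 1 or MLST8-KO replicate 3 (adjusted p at most 0.119). In TPM, PSMB10 was present at 0.127, 0.127 and 0.128 of the level of PSMB7 in WT samples and at 0.195, 0.157 and 0.175 in MLST8-KO samples. The other inducible subunits, which the symbol rule leaves out, did not pass: PSMB8 (beta5i) had a log2 fold change of 0.19 (SE 0.12, edgeR adjusted p = 0.228) and PSMB9 (beta1i) of 0.015 (SE 0.14, edgeR adjusted p = 0.943). Whether PSMB10 differed from them was not tested.

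In the ATPase ring log2 fold changes ran from -0.51 to 0.38. PSMC5 (Rpt6) had 57.8, 54.9 and 50.1 CPM in WT and 75.6, 65.2 and 71.5 CPM in MLST8-KO samples. All MLST8-KO samples were higher, with a log2 fold change of 0.38 (SE 0.090, edgeR adjusted p = 0.0120), and the call was lost without WT replicate 2 or MLST8-KO replicate 1 (adjusted p at most 0.0625). PSMC5 overlaps FTSJ3 in the annotation, and whether reads were counted by strand is not given in the sources used here. PSMC4 (Rpt3) moved the other way, from 153, 187 and 232 CPM in WT to 126, 130 and 146 CPM in MLST8-KO samples. The WT samples were spread more widely than the gap to the MLST8-KO samples, and WT replicate 3 was highest. Its log2 fold change of -0.51 (SE 0.13, edgeR adjusted p = 0.0185) became -0.34 without WT replicate 3, where it still passed (adjusted p = 0.0248), and the call was lost without WT replicate 2, MLST8-KO replicate 1 or MLST8-KO replicate 2 (adjusted p at most 0.0749). In TPM, PSMC5 stood at 0.546, 0.420 and 0.310 of the level of PSMC4 in WT samples and at 0.859, 0.725 and 0.707 in MLST8-KO samples. The complete particle holds these ATPases in equal numbers, and neither their proteins nor the particle were measured here. PSMC3 (Rpt5) had 143 ± 6.45 CPM in WT and 163 ± 5.19 CPM in MLST8-KO cells without overlap, and did not pass (0.19, SE 0.075, edgeR adjusted p = 0.0761). It was past the threshold with upper quartile scaling and on TPM. PSMC1, PSMC2 and PSMC6 lay between -0.26 and -0.016 and did not pass. PSMC1 has 13 annotated pseudogenes, the most of the 12 proteasome genes that have any.

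Around the ATPases, the other base subunits did not pass the test. PSMD2 (Rpn1), a scaffold and ubiquitin receptor, had 430 ± 8.74 TPM in WT and 463 ± 22.8 TPM in MLST8-KO cells (log2 fold change on CPM 0.019, SE 0.070, edgeR adjusted p = 0.850). PSMD4 (Rpn10), also a ubiquitin receptor, had 163 ± 13.1 and 192 ± 8.29 TPM (0.13, SE 0.093, edgeR adjusted p = 0.287), and it passed with limma on TPM. PSMD1 (Rpn2) had a log2 fold change of -0.024.

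In the lid, 2 of 8 subunits fell (25.0%, where 15.7% of all tested genes were lower). PSMD13 (Rpn9) had 101, 110 and 153 CPM in WT and 89.0, 79.7 and 87.3 CPM in MLST8-KO samples. WT replicate 3 was far above the other WT samples, and the log2 fold change of -0.51 (SE 0.14, edgeR adjusted p = 0.0211) became -0.31 without it (adjusted p = 0.0224). Leaving out any MLST8-KO sample ended the call (adjusted p 0.0589 to 0.0844). PSMD13 overlaps the neighbouring SIRT3 gene. PSMD12 (Rpn5) had 144, 149 and 169 CPM in WT and 119, 132 and 118 CPM in MLST8-KO samples, with no overlap. It fell by 20.2% (log2 fold change -0.33, SE 0.088, edgeR adjusted p = 0.0201), and the call was lost without WT replicate 2, MLST8-KO replicate 1 or MLST8-KO replicate 3 (adjusted p at most 0.0846). PSMD14 (Rpn11), the deubiquitinase of the lid, had 94.9 ± 9.21 TPM in WT and 91.1 ± 8.81 TPM in MLST8-KO cells and did not pass (-0.17, SE 0.099, edgeR adjusted p = 0.211). The other 5 lid subunits lay between -0.22 (PSMD3) and 0.017 (PSMD6).

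Genes for the activators that can cap the core in place of the regulatory particle, and for the inhibitor, did not pass the test. Their median relative to that of all genes was 0.00083 with the main scaling, -0.00022 with upper quartile scaling and 0.0083 on log2(TPM + 1). PSME1 and PSME2, which form the PA28 activator that is also linked to antigen processing, had 184 ± 16.8 and 174 ± 1.84 TPM in WT and 189 ± 15.5 and 182 ± 8.22 TPM in MLST8-KO cells. Their ratio in TPM was 1.08, 0.956 and 1.12 in WT samples and 1.15, 0.963 and 1.01 in MLST8-KO samples, which overlapped. PSME3, the nuclear PA28 subunit, had 170 ± 10.4 and 186 ± 6.27 TPM, PSME4 (PA200) had 41.6 ± 1.69 and 44.8 ± 3.02 TPM, and the inhibitor PSMF1 (PI31) had 97.6 ± 9.63 and 105 ± 5.25 TPM. Log2 fold changes on CPM for these 5 genes were -0.063, -0.045, 0.016, 0.012 and 0.0053, with SEs of 0.074 to 0.099, and edgeR adjusted p-values of 0.650 or more. Signs of such values changed with the scaling or the samples used.

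Assembly chaperones held the gene with the largest fall of the 44. PSMG3 (PAC3), which helps to build the alpha ring together with PSMG4, had 49.2, 59.4 and 81.1 CPM in WT and 44.4, 36.3 and 41.0 CPM in MLST8-KO samples. WT replicate 3 was highest, and the groups did not overlap. The log2 fold change was -0.64 (SE 0.16, edgeR adjusted p = 0.0151) and -0.42 without WT replicate 3 (adjusted p = 0.0144). Without MLST8-KO replicate 2 or replicate 3 the call was lost (adjusted p = 0.0694 and 0.0509), as it was with limma on TPM (adjusted p = 0.0542). The antisense gene PSMG3-AS1 overlaps PSMG3, and reads of the pair could not be told apart without strand. PSMG4 (PAC4), its partner, had 15.2 ± 2.48 TPM in WT and 18.2 ± 3.94 TPM in MLST8-KO cells (log2 fold change on CPM 0.21, SE 0.17, edgeR adjusted p = 0.365). PSMG1 and PSMG2, the other alpha ring chaperone pair, had 63.1 ± 11.3 and 150 ± 10.7 TPM in WT and 66.7 ± 5.74 and 150 ± 0.845 TPM in MLST8-KO cells, and neither passed (-0.033, SE 0.12, edgeR adjusted p = 0.853, and -0.11, SE 0.077, edgeR adjusted p = 0.295).

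The chaperones of the base assemble the ATPase ring. PSMD5 (S5b) had 90.5, 105 and 113 CPM in WT and 79.0, 78.5 and 80.8 CPM in MLST8-KO samples. The MLST8-KO samples were close together and below all WT samples, with a log2 fold change of -0.37 (SE 0.092, edgeR adjusted p = 0.0147), and the call was lost without WT replicate 2, MLST8-KO replicate 1 or MLST8-KO replicate 2 (adjusted p at most 0.0623). PSMD9 (p27) had 39.6, 43.9 and 48.3 CPM in WT and 36.2, 33.7 and 38.5 CPM in MLST8-KO samples, which did not overlap, and it stood just outside the threshold (-0.28, SE 0.099, edgeR adjusted p = 0.0516). PSMD10 (gankyrin) had 83.9 ± 5.42 and 85.6 ± 4.11 TPM (log2 fold change on CPM -0.076, SE 0.079, edgeR adjusted p = 0.478).

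**Figure D4:**
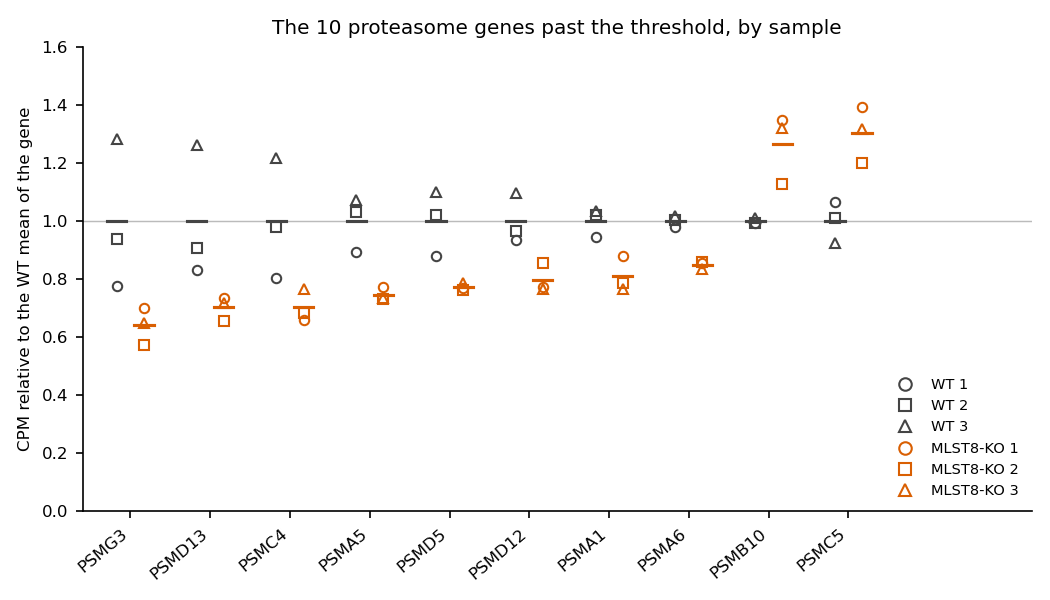
CPM of the 10 called genes in each sample, divided by the WT mean of the gene (WT grey, MLST8-KO orange, bars for group means, 3 samples per group). WT replicate 3 (triangle) is the highest WT sample for all 8 genes that fell, furthest above the others for PSMG3, PSMD13 and PSMC4. WT and MLST8-KO samples do not overlap for any of the 10, nor for 12 proteasome genes that were not called. Of all tested genes, 24.2% had every MLST8-KO sample below every WT sample, and 24.8% above.

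Summed levels by class were compared on both scales, and the mean of the regulatory particle was lower in MLST8-KO samples in CPM but higher in TPM. The 44 genes together had 7423 ± 300 CPM in WT and 6866 ± 63.8 CPM in MLST8-KO samples (SD, n = 3), but 9110 ± 223 and 9060 ± 147 TPM, which overlapped. The core particle had 2882 ± 111 CPM in WT and 2595 ± 50.8 CPM in MLST8-KO samples, and 4924 ± 94.5 and 4819 ± 86.7 TPM. For the regulatory particle the values were 3330 ± 187 and 3123 ± 28.4 CPM, but 2994 ± 127 and 3048 ± 55.5 TPM. Only the chaperones kept the groups apart on both scales among these 3 sums, with 396 ± 20.3 and 333 ± 9.03 CPM, and 525 ± 10.4 and 487 ± 5.80 TPM. This was not shared by the whole class. In mean TPM, PSMG3 went from 122 to 89.0, PSMD5 from 54.9 to 45.8 and PSMD9 from 35.7 to 31.6. PSMG2 was at 150 in both groups, and PSMG1, PSMG4 and PSMD10 were higher in MLST8-KO samples. Each sum is dominated by its most abundant genes, and no test was made on it.

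Genes that assemble, control or feed the proteasome, but whose symbols fall outside the rule, were read from a list of 30. Of the 29 that were tested, 1 rose and 8 fell in MLST8-KO cells (3.45% and 27.6%, where 16.3% of all tested genes were higher and 15.7% lower), with a median log2 fold change of -0.12. UBB, a ubiquitin gene, had too few counts to be tested, with 3, 0 and 1 in WT and 36, 2 and 3 in MLST8-KO samples. The 36 counts were in MLST8-KO replicate 1, the sample with hepatocyte transcripts. How reads were split between similar genes is not given, so the level of UBB could not be checked. On TPM with limma, 3 were higher and 5 lower (21.5% and 8.76% of all genes). Without WT replicate 2 or MLST8-KO replicate 2 the counts by edgeR were 0 higher and 4 lower, and without WT replicate 3, MLST8-KO replicate 1 or MLST8-KO replicate 3 they were 0 and 5. At an unadjusted p under 0.05, 1 gene was higher in each of these, and calls over all genes fell as well, to the numbers given above.

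Among the genes that build or position the proteasome, POMP, the maturation factor of the core, had 76.9, 88.3 and 92.7 CPM in WT and 70.8, 62.3 and 64.0 CPM in MLST8-KO samples. It fell by 23.6% (log2 fold change -0.39, SE 0.094, edgeR adjusted p = 0.0132), and was no longer past the threshold without WT replicate 2 or MLST8-KO replicate 2 (adjusted p at most 0.0595). AKIRIN2, which takes part in the import of proteasomes into the nucleus, had 173, 165 and 179 CPM in WT and 123, 132 and 134 CPM in MLST8-KO samples (-0.41, SE 0.076, edgeR adjusted p = 0.00538). The ranges were well apart. ADRM1, a ubiquitin receptor of the base, did not pass (-0.087, SE 0.091, edgeR adjusted p = 0.482).

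Some of the listed genes encode proteins that bind the proteasome. PITHD1, which shares a domain with the proteasome-bound protein TXNL1, had 70.8, 80.2 and 95.9 CPM in WT and 47.0, 45.5 and 48.9 CPM in MLST8-KO samples. Every MLST8-KO sample was far below the lowest WT sample, for a log2 fold change of -0.80 (SE 0.11, edgeR adjusted p = 0.00281). TXNL1 itself, a thioredoxin-like protein, went from 144, 139 and 145 CPM to 107, 116 and 108 CPM (-0.37, SE 0.075, edgeR adjusted p = 0.00678). ZFAND2A, a stress-induced zinc finger protein that associates with the proteasome, went from 68.6, 79.7 and 88.5 CPM to 49.9, 48.9 and 58.1 CPM (-0.59, SE 0.11, edgeR adjusted p = 0.00524). AKIRIN2, PITHD1, TXNL1 and ZFAND2A were called in all 6 analyses that left out a sample, unlike 9 of the 10 called subunits and chaperones. USP14, a deubiquitinase that binds PSMD2, fell by 14.7% (log2 fold change -0.23, SE 0.069, edgeR adjusted p = 0.0297) and passed only without WT replicate 1 among those analyses (adjusted p up to 0.110 in the others). It was also lost with upper quartile scaling (adjusted p = 0.0732) and with limma on log2(TPM + 1) (adjusted p = 0.207).

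The regulator NFE2L1 had 613, 642 and 693 CPM in WT and 554, 540 and 542 CPM in MLST8-KO samples, and fell by 16% (log2 fold change -0.25, SE 0.076, edgeR adjusted p = 0.0302). DDI2, the protease that releases active NFE2L1, fell by 28.0% from a low level of 8.71 ± 1.37 TPM (-0.47, SE 0.15, edgeR adjusted p = 0.0363). Both were lost in 5 of the 6 analyses that left out a sample, all but that without WT replicate 1, with adjusted p at most 0.0908 for NFE2L1 and 0.156 for DDI2. Both were also lost with upper quartile scaling (adjusted p = 0.0657 for NFE2L1 and 0.0533 for DDI2) and with limma on log2(TPM + 1) (0.149 and 0.0974). NFE2L2, the related factor, had a log2 fold change of 0.018.

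Of the carriers of ubiquitinated proteins, UBQLN4, a shuttle factor that brings them to the proteasome, had 112, 106 and 102 CPM in WT and 124, 130 and 130 CPM in MLST8-KO samples. The groups did not overlap, and it rose with a log2 fold change of 0.26 (SE 0.076, edgeR adjusted p = 0.0253). Of the analyses that left out 1 sample, it passed only in that without WT replicate 1, and the adjusted p reached 0.104 in the others.

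**Figure D5:**
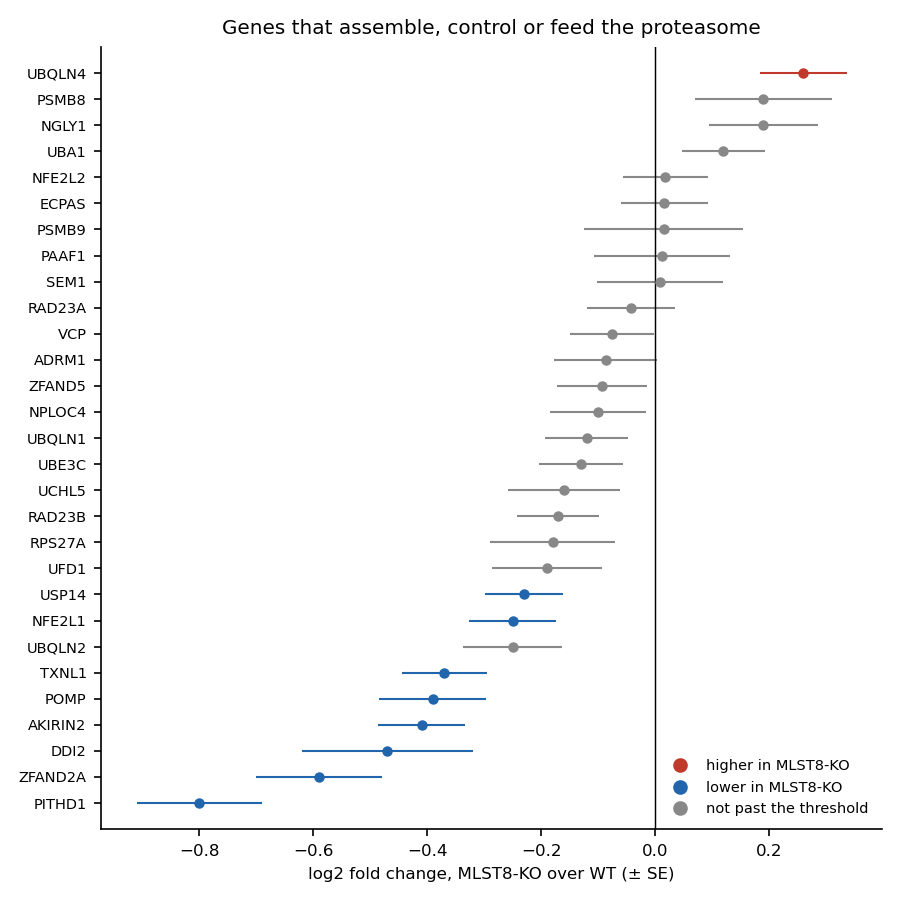
Log2 fold change, MLST8-KO over WT, with SE (edgeR, 3 samples per group), of the 29 tested genes that assemble, control or feed the proteasome. The 8 genes in blue passed downwards, PITHD1 furthest at -0.80, and UBQLN4, in red, upwards.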

How the data were processed

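The 44 proteasome genes, the 30 related genes, the markers and the motifs were chosen with earlier results of these data known. Poly(A) RNA of 3 WT and 3 MLST8-KO samples was sequenced by BGI. Per the labels and the study's methods, the authors aligned reads to GRCh38.p12 with HISAT and to genes with Bowtie2, and tested them with DESeq2. The authors deposited estimated counts, FPKM and TPM for each gene and sample, made from those alignments, and a table of their own fold changes and p-values, which was not used. FPKM and the authors' group means were not analysed. How reads were split between similar genes or by strand is not given in the sources used here.

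The deposited counts were not whole in 12.4% of values and were rounded, where whole counts had been planned for. Genes were filtered by group with filterByExpr and scaled by TMM (factors 0.964 to 1.029), leaving 12951 of 17448. MLST8-KO was compared with WT by the quasi-likelihood test of edgeR 4.0.16 (R 4.3.3) with Benjamini-Hochberg adjustment and a threshold of 0.05. SE is the absolute log2 fold change over the square root of F. CPM values carry the TMM factors, except for the marker sums, which were scaled to the total counts alone. Levels between genes were compared in TPM. Alternatives were RLE and upper quartile scaling, no filter, a minimum of 10 counts in every sample, a replicate block, leaving out each sample, DESeq2 1.42.0, and limma 3.58.1 on log2(TPM + 1) or log2(TPM + 0.1). The edgeR step was tested on simulated data before use. Figures were drawn with matplotlib 3.10.9. Named genes were the catalytic and inducible subunits, PSMD14, the ubiquitin receptors, activators, inhibitor and chaperones, up to 3 rises and 3 falls past the threshold in each class (mean count 50 or more), plus, of the related genes, NFE2L1, POMP, ADRM1, PSMB8, PSMB9 and every gene past the threshold, except for items that are not reported here. The other proteasome genes were to be given by range, and PSMA4, PSMC3, PSMD1, PSMD3 and PSMD6 were singled out after their values were seen.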

Additional observations from a re-analysis of the deposited data

How the results depend on the processing

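Of 560 values recomputed for 40 single genes, 449 kept direction and side of the threshold, 69 kept direction and lost the threshold, 8 gained it, and 34 changed sign, none of the latter in a gene past the threshold. RLE scaling and DESeq2 called the same 2 higher and 8 lower proteasome genes, as did both other filters. Limma gave 4 higher and 3 lower with either pseudocount. Leaving out 1 sample gave 0 to 2 higher and 2 to 11 lower calls. Fewer samples were used in those analyses. The cause of the other changes was not tested. Same-numbered samples deviated together only weakly (r = 0.105, 0.0565 and 0.14 across 12951 genes). Each sample correlated best with its own number (r from -0.117 to 0.0203 in the other pairs), which is a hint from the data and not from the design. A replicate block gave 2 higher and 10 lower calls, with PSMD3 and PSMD9 added.

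Sign changed in these genes, none of which had passed. On log2(TPM + 1) and log2(TPM + 0.1), the log2 fold change was 0.019 in both for PSMB5, 0.084 in both for PSMB6, 0.045 in both for PSME1, 0.060 and 0.061 for PSME2, 0.090 and 0.092 for PSMG1, 0.030 and 0.031 for PSMD10, and 0.066 in both for ADRM1. With upper quartile scaling it was 0.035 for PSMB6, 0.0096 for PSME2 and 0.020 for PSMG1. DESeq2 gave -0.00014 for PSMF1. Leaving out 1 sample gave values on both sides of 0 for PSMB6 (-0.068 to 0.046), PSMD2 (-0.003 to 0.033), PSME1 (-0.14 to 0.0097), PSME3 (-0.021 to 0.048), PSME4 (-0.019 to 0.041), PSMF1 (-0.038 to 0.068), PSMG1 (-0.15 to 0.040) and PSMB9 (-0.078 to 0.073). The 3 samples a group and counts near 74 for PSMG4 limit what could be seen. The median of the 44 genes stayed below that of all genes, by 0.12 with TMM, RLE and upper quartile scaling, and by 0.088 and 0.10 on log2(TPM + 1) and log2(TPM + 0.1).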
